A study of Mus musculus with 12 samples.

Results

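The Kruppel-like factors are zinc-finger transcription factors, and 10 of their genes were followed here in laser-captured granulosa cells of the mouse: Klf2, Klf3, Klf4, Klf5, Klf6, Klf7, Klf9, Klf10, Klf13 and Klf15. The genes were picked by symbol, without a threshold on their values. They were read from 34 of the 34945 probe sets that are annotated to a single gene, and are 10 of the 18193 genes tested. Each gene is represented by its brightest probe set, judged by the mean of all 12 arrays, and its remaining probe sets serve as a check. Levels are log2(intensity + 16) after quantile normalisation, so that the lowest possible level is near 4 and a difference of 1 is a doubling well above that floor.

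The arrays formed 4 groups of 3. The bERKO hCG group held granulosa cells of mice lacking oestrogen receptor beta that were given PMSG and then hCG, and was collected 4 h after the hCG. The WT hCG group held wild-type cells at the same time. The bERKO PMSG group and the WT PMSG group were collected 48 h after PMSG without hCG. All mice were 3 weeks old, all received PMSG, a gonadotropin from pregnant mares that makes follicles grow, and hCG stands in for the luteinising hormone that triggers ovulation. The RNA came from the granulosa layer of preovulatory follicles cut out by laser, and 25 ng of it was amplified for each array. The labels call the replicates biological, but the number of animals behind an array, the bERKO allele and the cells in which it is deleted are not given in the sources used here.

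Kruppel-like factors bind GC-rich and CACCC sequences through their zinc fingers at the carboxyl end, and differ in the rest of the protein. Klf2, Klf4, Klf5, Klf6 and Klf7 are mostly described as activators, Klf3 as a repressor that works through CtBP proteins, and Klf9, Klf10 and Klf13 as factors that recruit the Sin3 corepressor. Several of them are immediate or early response genes in other cells, and in the ovary the surge of luteinising hormone is known to switch the granulosa cell from proliferation to luteal differentiation through cyclic AMP.

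The targeted gene was examined first. Esr2, which encodes oestrogen receptor beta, had levels of 8.34, 8.13 and 8.53 in the bERKO hCG arrays, against 8.68, 9.52 and 8.78 in the WT hCG arrays. It had levels of 8.19, 8.64 and 8.13 in the bERKO PMSG arrays, against 10.33, 9.01 and 9.33 in the WT PMSG arrays. The bERKO arrays lay below the WT arrays in both treatments, without passing the test (limma adjusted p = 0.397 after hCG and 0.307 after PMSG), and whether the probe set lies in the deleted stretch is not known. A pair of arrays stood apart in RNA quality: the 3′ to 5′ signal ratio of Gapdh was 32.2 on WT hCG replicate 1 and 23.7 on bERKO PMSG replicate 3, against 4.72 to 11.2 on the other arrays. Markers of granulosa cells averaged 11.01 to 11.30 in bERKO hCG arrays, 12.15 to 12.33 in WT hCG arrays, 11.93 to 12.15 in bERKO PMSG arrays and 12.19 to 12.40 in WT PMSG arrays, over 11 of the 12 listed genes. Markers of endothelium averaged 6.79 to 7.66 in bERKO hCG arrays, against 5.51 to 5.73 in WT hCG arrays, 5.45 to 5.89 in bERKO PMSG arrays and 5.63 to 6.25 in WT PMSG arrays, and markers of the oocyte were highest in bERKO PMSG arrays, at 8.94 to 10.23. In such bulk samples fewer cells of a type and less RNA per cell cannot be told apart.

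**Figure D1:**
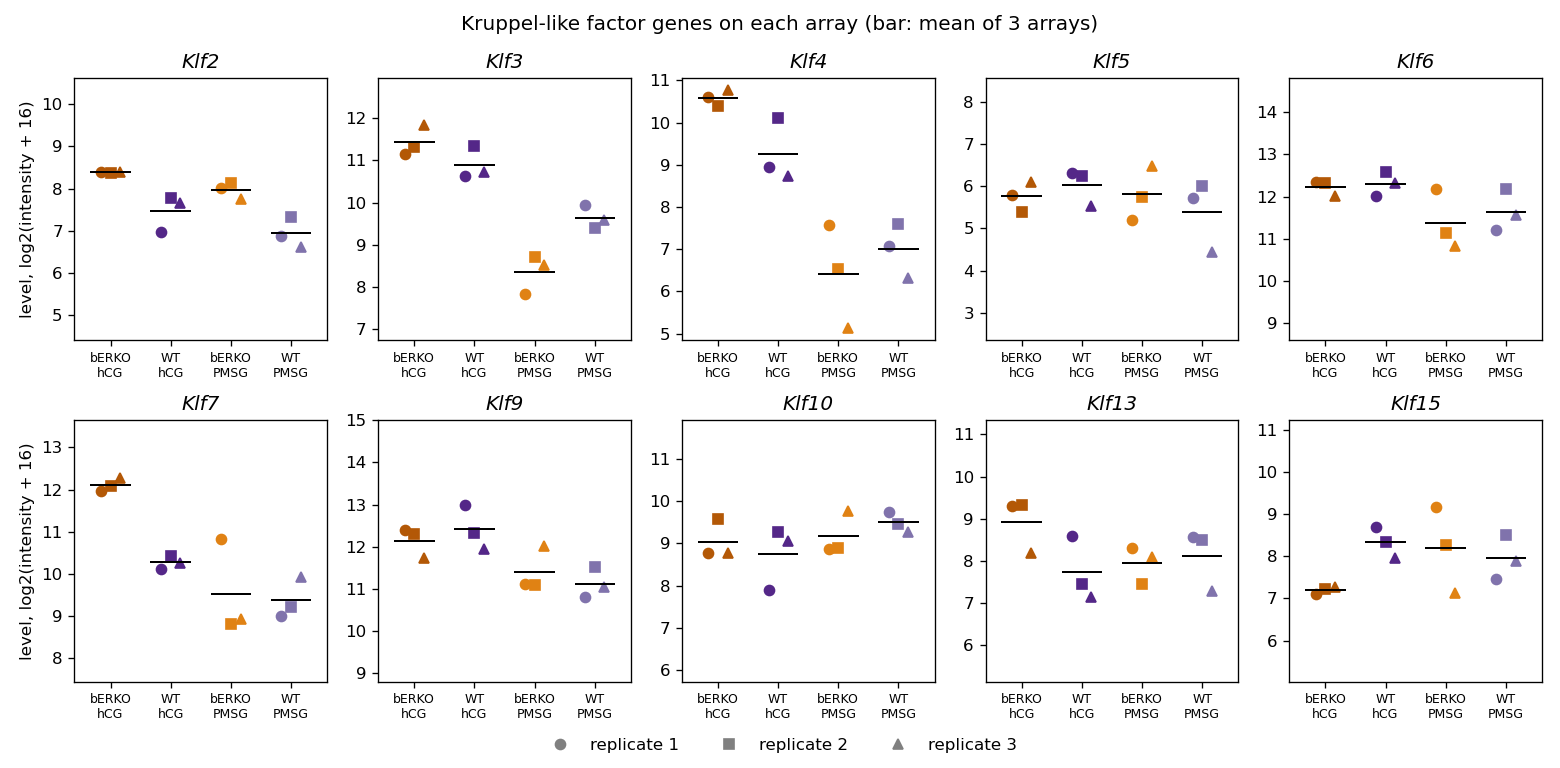
Level of each of the 10 genes on each of the 12 arrays, as log2(intensity + 16), by group, with the mean of 3 arrays as a bar and the replicate number as the symbol. Klf3, Klf4 and Klf7, and by a small margin Klf2, lie higher in all 3 bERKO hCG arrays than in any PMSG array. Klf5 and Klf10 keep to overlapping ranges in bERKO.

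Within bERKO mice, hCG was followed by higher Klf4, Klf3 and Klf7. The question of this comparison is how granulosa cells without the receptor respond to the ovulatory signal. Of the 10 genes, 3 rose and 0 fell at an adjusted p under 0.05, and 4 were significant at an unadjusted p under 0.05, beside 32.2% of all genes. Over all genes 7.05% rose and 11.9% fell, together 18.9%. The median change of the 10 genes was 0.79, beside -0.19 over all genes.

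Klf4, an early response gene that restrains proliferation in epithelia and is one of the factors used to reprogram cells to pluripotency, showed the largest change. Its level was 10.62, 10.39 and 10.77 in the bERKO hCG arrays, against 7.57, 6.52 and 5.12 in the bERKO PMSG arrays. The hCG arrays were close to each other and far above the PMSG arrays, which were spread over more than 2 units. The change was 4.19 ± 0.57 (SE, n = 3 each; limma adjusted p = 0.000744), or 18.2-fold on this scale. The low value on bERKO PMSG replicate 3, one of the arrays with a high Gapdh ratio, enters this mean, and without that array the change was 3.55.

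Klf3, the CtBP-binding repressor, had a level of 11.15, 11.33 and 11.85 in the bERKO hCG arrays, against 7.84, 8.70 and 8.53 in the bERKO PMSG arrays. The groups were separated by more than 2 units at their nearest arrays. The change was 3.08 ± 0.33 (SE, n = 3 each; limma adjusted p = 0.00024), an 8.48-fold rise.

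Klf7, studied mainly for its part in neuron development and in fat cells, had a level of 11.97, 12.09 and 12.28 in the bERKO hCG arrays, against 10.82, 8.82 and 8.94 in the bERKO PMSG arrays. The groups did not overlap, although replicate 1 of the PMSG group was far above the other two. The change was 2.59 ± 0.47 (SE, n = 3 each; limma adjusted p = 0.00314), and was 3.24 without that replicate.

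The other 7 genes did not pass in bERKO. Klf2, a factor of quiescent endothelium and lymphocytes, had a level of 8.39, 8.36 and 8.40 in the bERKO hCG arrays, against 8.02, 8.13 and 7.76 in the bERKO PMSG arrays. These groups did not overlap, but the change was 0.42 ± 0.29 (SE, n = 3 each; limma adjusted p = 0.351). With Klf2 included, 4 of the 10 genes had every hCG array above every PMSG array in bERKO and 0 had every one below, beside 13.3% and 22.9% of all genes, together 36.2%.

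Klf13 changed by 0.98 (limma adjusted p = 0.189), Klf6 by 0.85 (0.143) and Klf9 by 0.74 (0.188), all with overlapping arrays. Klf15, a regulator of amino acid and glucose metabolism in liver and muscle, had a level of 7.09, 7.23 and 7.27 in the bERKO hCG arrays, against 9.16, 8.26 and 7.14 in the bERKO PMSG arrays. Its change was -0.99 with a 95% confidence interval of -1.99 to 0.01. The interval was -1.03 to 0.94 for Klf5, a factor of proliferating epithelium, and -1.03 to 0.75 for Klf10, a gene known for early induction by TGF beta. Without both arrays of high Gapdh ratio 5 of the 10 genes passed, Klf9 (1.04, limma adjusted p = 0.0422) and Klf15 (-1.51, limma adjusted p = 0.0207) joining the first 3. Klf15 also passed without bERKO PMSG replicate 3 alone (limma adjusted p = 0.0241), and Klf6 without bERKO PMSG replicate 1, at 1.25 (limma adjusted p = 0.0332). On all arrays the 5 probe sets of Klf6 ran between -0.06 and 1.86 in bERKO. Those nearest in brightness to the one used gave 0.47 and 0.21.

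Markers of other cells moved with the bERKO response, in which 7.05% of all genes rose and 11.9% fell. Of the 12 endothelial genes 5 rose and 0 fell, and their summed intensity was 1657 to 3274 in bERKO hCG arrays, against 497.3 to 844.6 in bERKO PMSG arrays. Of 11 granulosa genes 0 rose and 5 fell, and of 12 stroma and smooth muscle genes 2 rose and 0 fell. Of 11 leukocyte genes 2 rose (Cd52 and Lyz2) and 1 fell (Cd3e), with a summed intensity of 905.4 to 2265 in bERKO hCG arrays, against 397.7 to 1264 in bERKO PMSG arrays. Of 11 oocyte genes 0 rose and 6 fell. The part of these shifts in the Kruppel-like changes was not tested.

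**Figure D2:**
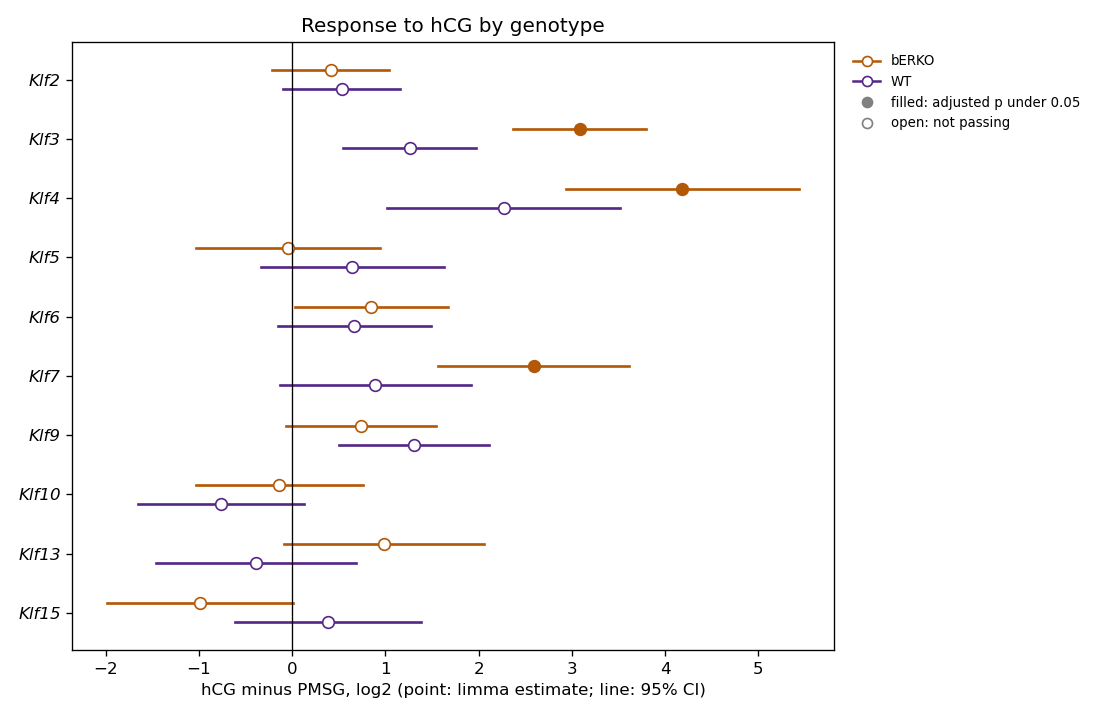
Change after hCG (hCG minus PMSG, log2 units) of each gene in bERKO and in WT mice, as the limma estimate (point) with its 95% confidence interval (line), filled where the adjusted p is under 0.05. The filled points are Klf3 at 3.08, Klf4 at 4.19 and Klf7 at 2.59, all in bERKO.

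The start regions of these genes are shown here because Klf3, Klf4 and Klf7 carried the change in bERKO and Klf9 had one of the larger changes in WT mice. Each window holds 250 bases before and 50 bases after a transcript start in RefSeq on GRCm38.p6, 5′ to 3′ on the gene's own strand. For Klf3, Klf4 and Klf9 that start is the outermost of the gene, while for Klf7, which spans chr1:64029448-64122345, it lies 956 bases inside the gene. Capitals mark TGACG, the core of the cyclic AMP response element, and the GC box GGGCGG, each on either strand (CGTCA and CCGCCC on the other). The windows are chr5:64803271-64803570 on the plus strand for Klf3, chr4:55532426-55532725 on the minus strand for Klf4, chr1:64121340-64121639 on the minus strand for Klf7 and chr19:23140976-23141275 on the plus strand for Klf9.
Klf3: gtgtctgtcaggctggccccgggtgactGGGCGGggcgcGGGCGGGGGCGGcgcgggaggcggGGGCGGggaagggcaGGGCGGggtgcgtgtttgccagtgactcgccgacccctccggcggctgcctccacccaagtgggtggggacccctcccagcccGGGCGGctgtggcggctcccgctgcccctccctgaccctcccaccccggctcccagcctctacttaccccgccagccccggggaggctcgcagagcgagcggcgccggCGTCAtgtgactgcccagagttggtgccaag
Klf4: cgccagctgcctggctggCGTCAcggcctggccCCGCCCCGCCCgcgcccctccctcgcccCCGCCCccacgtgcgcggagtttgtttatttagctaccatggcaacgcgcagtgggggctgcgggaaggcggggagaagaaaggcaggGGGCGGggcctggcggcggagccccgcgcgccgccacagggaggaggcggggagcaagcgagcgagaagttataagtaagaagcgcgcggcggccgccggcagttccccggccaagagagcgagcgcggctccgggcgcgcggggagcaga
Klf7: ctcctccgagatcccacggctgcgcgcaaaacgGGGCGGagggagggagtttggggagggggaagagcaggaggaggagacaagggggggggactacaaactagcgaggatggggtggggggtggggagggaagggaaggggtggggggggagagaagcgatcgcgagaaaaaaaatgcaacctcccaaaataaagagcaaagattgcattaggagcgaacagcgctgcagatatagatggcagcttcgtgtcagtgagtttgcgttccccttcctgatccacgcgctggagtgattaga
Klf9: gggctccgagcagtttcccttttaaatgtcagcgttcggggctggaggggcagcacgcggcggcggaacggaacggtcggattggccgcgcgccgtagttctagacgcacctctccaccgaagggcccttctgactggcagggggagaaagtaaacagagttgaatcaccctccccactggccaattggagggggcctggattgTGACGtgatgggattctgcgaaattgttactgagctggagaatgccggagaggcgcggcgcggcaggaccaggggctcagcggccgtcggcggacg

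A window was found for 8 of the 10 genes, all but Klf5 and Klf10, and that of Klf15 starts 1533 bases inside its gene. The full element TGACGTCA was in 0 of the 8 windows and in 1.79% of the 32851 windows of the table. TGACG, which the full element contains, was in 6 of the 8 windows (Klf2, Klf3, Klf4, Klf9, Klf13 and Klf15) and in 20.8% of all windows. In Klf4 its leftmost base lies at position -232 from the start, in Klf9 at -46 and in Klf3 at 20, while Klf7 has no match. GGGCGG was in 7 of the 8 windows, Klf9 being the exception, and in 35.7% of all windows, and the Klf3 window held 6 copies, the Klf4 window 4 and the Klf7 window 1. The CACCC box CACCC was in 6 of the 8 windows and in 57.5% of all, and the CCAAT box CCAAT was in 4 of the 8 and in 37.4% of all, both strands searched. A match is a run of letters only, and genes that rose and genes that did not pass both hold these motifs.

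In WT mice the same comparison gave smaller estimates for Klf3, Klf4 and Klf7, and, with all arrays kept, a larger one for Klf9. Of the 10 genes, 0 passed in limma, beside 2.08% of all genes (0.731% higher and 1.35% lower), and 3 were significant at an unadjusted p under 0.05, beside 17.1%. The 4 genes with every WT hCG array above every WT PMSG array were Klf3, Klf4, Klf7 and Klf9, beside 8.79% of all genes, and Klf10 had every hCG array below, beside 15.2%, which makes 24% of all genes with separate groups. The median change of the 10 genes was 0.65, beside -0.08 over all genes.

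Klf4 had a level of 8.96, 10.10 and 8.73 in the WT hCG arrays, against 7.08, 7.60 and 6.31 in the WT PMSG arrays. Every hCG array was higher by more than 1 unit, and the change was 2.27 ± 0.57 (SE, n = 3 each; limma adjusted p = 0.0673). Klf3 had a level of 10.64, 11.34 and 10.72 in the WT hCG arrays, against 9.94, 9.39 and 9.59 in the WT PMSG arrays. Its change was 1.26 ± 0.33 (SE, n = 3 each; limma adjusted p = 0.0725).

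Klf9, a gene induced by glucocorticoids in many tissues and a partner of the progesterone receptor in mouse uterus, had a level of 12.997, 12.34 and 11.95 in the WT hCG arrays, against 10.81, 11.51 and 11.05 in the WT PMSG arrays. All hCG arrays were higher, and the change was 1.30 ± 0.37 (SE, n = 3 each; limma adjusted p = 0.0946). In bERKO mice the same gene had a level of 12.41, 12.30 and 11.74 in the hCG arrays, against 11.13, 11.08 and 12.02 in the PMSG arrays, where replicate 3 of the PMSG group overlapped the hCG group. The levels of 12.997 and 12.02 came from the arrays of high Gapdh ratio, WT hCG replicate 1 and bERKO PMSG replicate 3. Without the former the change of Klf9 in WT was 1.02, and without the latter its change in bERKO was 1.04.

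Klf7 had a level of 10.11, 10.44 and 10.27 in the WT hCG arrays, against 9.01, 9.21 and 9.92 in the WT PMSG arrays, a change of 0.89 (95% confidence interval -0.13 to 1.91). Klf10 had a level of 7.89, 9.27 and 9.06 in the WT hCG arrays, against 9.76, 9.47 and 9.28 in the WT PMSG arrays. The groups were apart by a narrow margin, with a change of -0.76 (limma adjusted p = 0.381). The level of 7.89 was that of WT hCG replicate 1, an array of high Gapdh ratio, and without it the change of Klf10 was -0.33. The changes of the other genes in WT were 0.66 for Klf6, 0.65 for Klf5, 0.53 for Klf2, 0.38 for Klf15 and -0.39 for Klf13, with overlapping arrays.

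These calls lay near the threshold. Without bERKO PMSG replicate 3, whose removal changes only the shared spread here, 1 gene passed in WT, Klf4 (limma adjusted p = 0.0286), and the same gene passed without bERKO PMSG replicate 1 (0.043). WT hCG replicate 1, the array with the highest Gapdh ratio, had the lowest level of its group for 5 of the 10 genes and the highest for 4.

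The difference of the hCG responses, bERKO minus WT, was tested as an interaction. In limma 0 of the 10 genes passed, beside 1.31% of all genes (0.676% higher and 0.638% lower), and 3 were significant at an unadjusted p under 0.05, beside 15.3% of all genes. Klf3 was the nearest to the threshold, with a difference of 1.82 ± 0.46 (SE; limma adjusted p = 0.0794) between changes of 3.08 in bERKO and 1.26 in WT. That estimate was the largest of its 7 probe sets, which ran between -0.49 and 1.82. The second brightest gave 0.64 (limma adjusted p over probe sets = 0.611). The difference was 1.92 ± 0.81 for Klf4 (limma adjusted p = 0.288) and 1.70 ± 0.66 for Klf7 (limma adjusted p = 0.25). Klf7 passed without bERKO PMSG replicate 1, at 2.34 (limma adjusted p = 0.039).

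At the probe sets used, Klf13 and Klf15 had estimates of opposite sign in the genotypes. The difference was 1.37 for Klf13, between 0.98 in bERKO and -0.39 in WT (limma adjusted p = 0.377). The other probe sets of Klf13 did not share this pattern. The second brightest rose in both genotypes, by 0.30 in WT, with a difference of 0.71. The dimmest gave -0.44 in bERKO and 0.58 in WT, a difference of -1.02. For Klf15 the difference was -1.37, between -0.99 in bERKO and 0.38 in WT (limma adjusted p = 0.345). The 95% confidence intervals of the differences were -1.003 to 0.77 for Klf2, -0.98 to 1.34 for Klf6, -1.70 to 0.58 for Klf9, -0.64 to 1.88 for Klf10 and -2.08 to 0.70 for Klf5.

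Between the genotypes after hCG, Klf7 showed the largest difference. In limma 0 of the 10 genes passed, beside 3.09% of all genes (1.55% higher and 1.54% lower), and 5 were significant at an unadjusted p under 0.05 (Klf2, Klf4, Klf7, Klf13 and Klf15), beside 17.5%. The 3 genes with every bERKO array above every WT array were Klf2, Klf4 and Klf7, beside 11.4% of all genes, and Klf15 had every bERKO array below, beside 13.2%, which makes 24.5% with separate groups.

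Klf7, with the array levels given above, averaged 12.12 ± 0.15 in the bERKO hCG arrays and 10.27 ± 0.16 in the WT hCG arrays (SD, n = 3 each). The difference was 1.84 ± 0.47 (SE; limma adjusted p = 0.0566), or 3.59-fold, and it passed without bERKO PMSG replicate 1, an array of neither group that enters only through the shared spread (limma adjusted p = 0.0128). Klf4 averaged 10.59 ± 0.19 in the bERKO hCG arrays and 9.26 ± 0.73 in the WT hCG arrays (SD, n = 3 each), a difference of 1.33 (limma adjusted p = 0.255).

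Klf2 had a level of 8.39, 8.36 and 8.40 in the bERKO hCG arrays, against 6.98, 7.79 and 7.65 in the WT hCG arrays. The bERKO arrays were almost equal and all higher, by 0.91 ± 0.29 on average (SE, n = 3 each; limma adjusted p = 0.114). Klf15 had a level of 7.09, 7.23 and 7.27 in the bERKO hCG arrays, against 8.69, 8.35 and 7.95 in the WT hCG arrays. All bERKO arrays were lower, and the difference was -1.13 ± 0.46 (SE, n = 3 each; limma adjusted p = 0.219).

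Klf13, a Sin3-recruiting factor close to Klf9, had a level of 9.30, 9.33 and 8.18 in the bERKO hCG arrays, against 8.60, 7.45 and 7.15 in the WT hCG arrays. WT replicate 1 lay above bERKO replicate 3, and the difference was 1.202 (limma adjusted p = 0.224). The 95% confidence intervals of the difference were -0.17 to 1.25 for Klf3, -0.59 to 1.19 for Klf10, -0.90 to 0.74 for Klf6, -1.25 to 0.72 for Klf5 and -1.08 to 0.53 for Klf9.

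Markers of other cells moved with this comparison. Of the 12 endothelial genes 4 were higher in bERKO hCG arrays than in WT hCG arrays and 0 lower, and their summed intensity was 1657 to 3274 in bERKO hCG arrays, against 469.2 to 736.1 in WT hCG arrays. Cdh5, the cadherin of endothelial junctions, had a level of 8.24, 8.97 and 8.19 in bERKO hCG arrays, against 4.34, 6.20 and 5.74 in WT hCG arrays. Of 11 granulosa genes 4 were lower in bERKO hCG arrays and 0 higher, and stroma and smooth muscle markers averaged 7.41 to 8.64 in bERKO hCG arrays, against 6.22 to 7.04 in WT hCG arrays. The summed intensity of 11 leukocyte genes was 905.4 to 2265 in bERKO hCG arrays, against 393.2 to 554 in WT hCG arrays; 5 of them had every bERKO array above every WT array, and 0 passed in limma, with 5 at an unadjusted p under 0.05. Klf2 and Klf4 are known to be expressed in endothelium too, and the part of these cells in the Kruppel-like differences was not tested.

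Between the genotypes before hCG, Klf3 had the lowest estimate of the 10 genes for bERKO minus WT and Klf2 the highest. In limma 0 of the 10 genes passed, beside 0.011% of all genes, and these 2 were significant at an unadjusted p under 0.05, beside 9.53%. Both had groups that did not overlap, beside 14.7% of all genes (8.14% with bERKO above and 6.58% below). Klf3 had a level of 7.84, 8.70 and 8.53 in the bERKO PMSG arrays, against 9.94, 9.39 and 9.59 in the WT PMSG arrays. The difference was -1.28 ± 0.33 (SE, n = 3 each; limma adjusted p = 0.267).

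Klf2 had a level of 8.02, 8.13 and 7.76 in the bERKO PMSG arrays, against 6.88, 7.32 and 6.62 in the WT PMSG arrays. All bERKO arrays were higher, by 1.03 ± 0.29 on average (SE, n = 3 each; limma adjusted p = 0.297). With all arrays kept, the Klf2 difference was thus near 1 unit in both treatments, and it passed in neither. Without WT hCG replicate 1, an array of high Gapdh ratio, it was 0.67 after hCG. Summed over the 12 endothelial genes, the intensity was 497.3 to 844.6 in bERKO PMSG arrays, against 546.3 to 1036 in WT PMSG arrays. Markers of the oocyte differed between these groups: their summed intensity was 7031 to 19930 in bERKO PMSG arrays, against 627.7 to 5574 in WT PMSG arrays, and 6 of 11 had every bERKO array above every WT array. None of the 11 passed in limma, 10 being significant at an unadjusted p under 0.05, and their part in the Klf2 and Klf3 differences was not tested. The other 8 genes had overlapping arrays. Their estimates were -0.59 for Klf4, -0.32 for Klf10, -0.26 for Klf6, -0.17 for Klf13, 0.15 for Klf7, 0.24 for Klf15, 0.28 for Klf9 and 0.43 for Klf5.

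**Figure D3:**
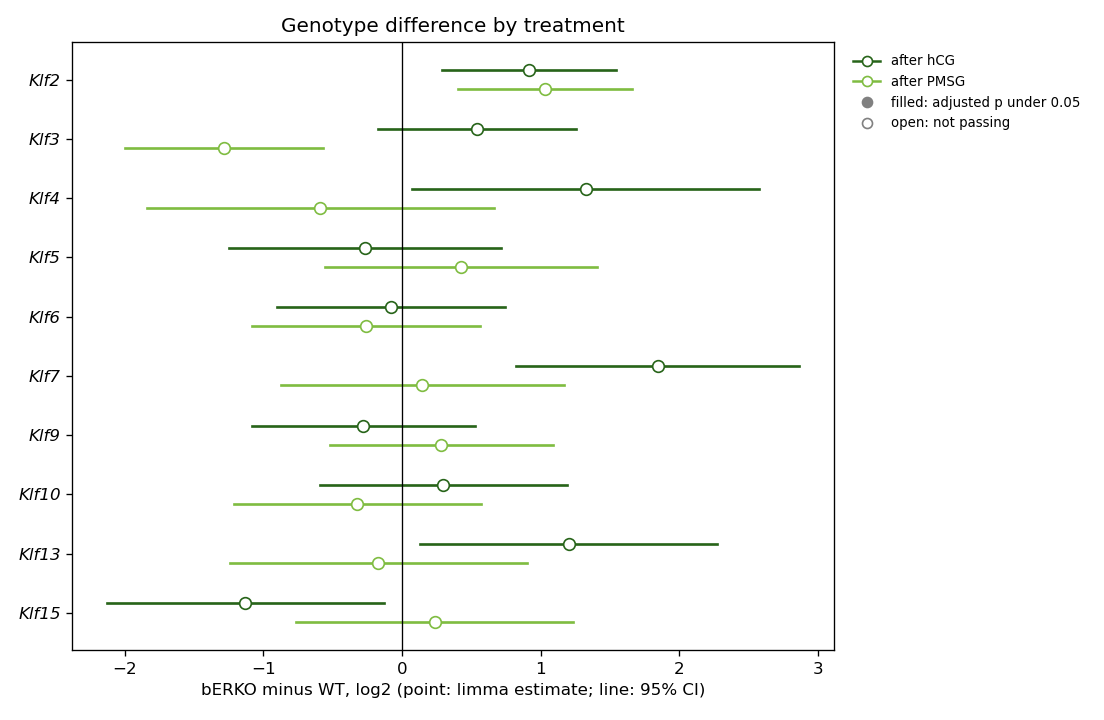
Difference between genotypes (bERKO minus WT, log2 units) of each gene after hCG and after PMSG, as the limma estimate (point) with its 95% confidence interval (line). Klf2 lies near 1 in both treatments, Klf3 at -1.28 after PMSG and Klf7 at 1.84 after hCG, and no point is filled because no adjusted p is under 0.05.

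Of the 10 genes, 7 have more than 1 probe set, which tell how far a gene's estimate depends on where it is read. For the bERKO response, both probe sets of Klf4 rose, by 3.29 and 4.19, and all 4 of Klf7 rose, by 1.51 to 2.69 (limma adjusted p over probe sets of at most 0.0239). The 7 probe sets of Klf3 gave 0.09 to 3.08, and the lowest value came from the probe set with the lowest mean level, 4.48, near the floor. In WT mice the 4 probe sets of Klf7 gave -0.14 to 0.89, and both of Klf4 gave 2.19 and 2.27. The 7 of Klf3 gave -0.38 to 1.92 in WT, and 2 that are not the one used passed there, at 1.30 and 1.84 (limma adjusted p over probe sets = 0.0476 and 0.0465). The 7 of Klf9 gave -0.16 to 1.62 in bERKO and 0.42 to 1.97 in WT. Their difference of the responses ran between -1.89 and 1.03, so the larger WT estimate of Klf9 was not shared by all of them.

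For the difference of the hCG responses the second probe set of Klf7 gave 2.32 (limma adjusted p over probe sets = 0.0341), beside 1.70 for the one used. The same probe set gave a genotype difference after hCG of 1.34 (limma adjusted p over probe sets = 0.0457) and, after PMSG, of -0.98, where the one used gave 0.15. The lower Klf3 of bERKO PMSG arrays was not shared by its second probe set, at 0.40, and its 7 probe sets ran between -1.28 and 0.72. Klf2, Klf10 and Klf15 have a single probe set.

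**Figure D4:**
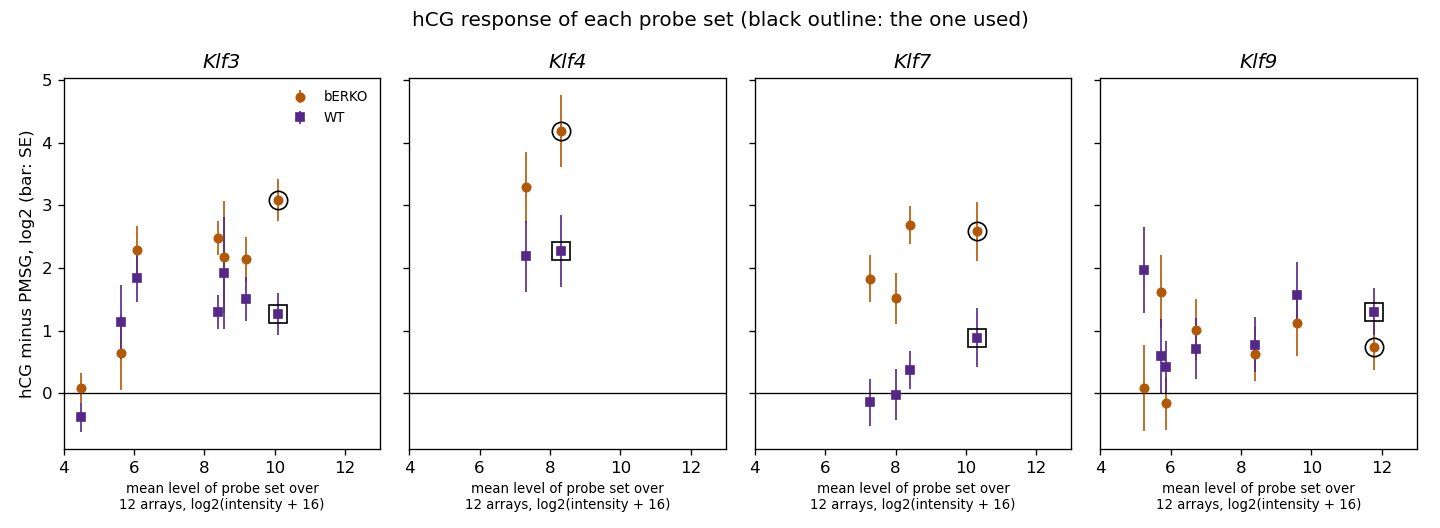
Change after hCG (hCG minus PMSG, log2 units, bars SE) of each probe set of Klf3, Klf4, Klf7 and Klf9 against its mean level over the 12 arrays, in bERKO (circles) and WT (squares), with the probe set used outlined. The 4 Klf7 probe sets lie at 1.51 to 2.69 in bERKO and at -0.14 to 0.89 in WT.

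Other genes of the pathway were read from lists. Over all genes 7.05% rose and 11.9% fell in bERKO, and the bERKO counts of every list stand beside these shares. Of the other Kruppel-like genes 6 of 7 were measured, and in bERKO hCG arrays 0 rose and 1 fell, Klf17, a factor known from germ cells and early embryos. Klf17 had a level of 6.12, 6.54 and 6.39 in bERKO hCG arrays, against 8.74, 8.91 and 9.50 in bERKO PMSG arrays, a change of -2.70 (limma adjusted p = 0.0152). Oocyte markers fell with it, 6 of 11 of them, and averaged 6.73 to 7.88 in bERKO hCG arrays, against 8.94 to 10.23 in bERKO PMSG arrays. Their part in the Klf17 value was not tested. Its 3 probe sets ranged between -2.70 and 0.47.

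Among the SP genes, close relatives that bind the same GC boxes, 1 of 7 measured rose in bERKO, Sp3, at 1.24 (limma adjusted p = 0.0282), and 0 fell. Of 12 corepressors and coactivators 0 rose and 2 fell in bERKO, beside 7.05% and 11.9% of all genes. They were Wdr5, a subunit of histone methyltransferase complexes, at -1.18 (limma adjusted p = 0.0105), and Sin3b, the corepressor scaffold, at -0.76 (limma adjusted p = 0.0366). Sin3b was also the single gene of that list to fall in WT, with a level of 12.54, 12.66 and 12.51 in WT hCG arrays, against 13.86, 13.74 and 13.43 in WT PMSG arrays (-1.10, limma adjusted p = 0.0328). The second probe set of Wdr5 gave 0.81, and the 5 of Sin3b ranged between -0.76 and 0.35 in bERKO and between -1.10 and 1.56 in WT.

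Of the 10 upstream kinases, MEF2 factors and ubiquitin ligases 1 rose in bERKO and 0 fell, beside 7.05% and 11.9% of all genes. It was Wwp1, a ubiquitin ligase that marks Klf2 and Klf5 for destruction in other cells, with a level of 11.69, 11.81 and 12.19 in bERKO hCG arrays, against 9.58, 10.09 and 10.39 in bERKO PMSG arrays. The groups were apart by more than 1 unit, and the change was 1.88 (limma adjusted p = 0.00148). The 3 probe sets of Wwp1 ranged between 0.60 and 1.88 in bERKO.

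Of 17 measured genes reported as Kruppel-like targets in other cells 4 rose in bERKO and 0 fell, beside 7.05% and 11.9% of all genes. Their median change was 0.68, beside -0.19 over all genes. Star, which carries cholesterol into the mitochondrion for steroid synthesis, changed by 6.51 (limma adjusted p = 0.000547). Cdkn1a, the cell cycle inhibitor p21 and a classical target of Klf4 and Klf6, had a level of 10.98, 11.14 and 11.27 in bERKO hCG arrays, against 9.49, 9.63 and 9.35 in bERKO PMSG arrays, a change of 1.64 (limma adjusted p = 0.00157). Thbd, the thrombin receptor of endothelium and a known Klf2 and Klf4 target there, changed by 2.34 (limma adjusted p = 0.00388), beside the higher endothelial markers given above. Its level was 7.93, 7.89 and 7.03 in bERKO hCG arrays, against 5.57, 4.26 and 6.01 in bERKO PMSG arrays. The PMSG levels were low, that of replicate 2 near the floor of 4, so the size of the change is uncertain. Ccnd1, the cyclin that drives entry into S phase, changed by 1.16 (limma adjusted p = 0.0364), and its 3 probe sets ranged between 0.11 and 2.08.

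In WT mice 1 of the target genes rose and 0 fell, beside 0.731% and 1.35% of all genes. It was Star, at 4.03 (limma adjusted p = 0.0345), with a level of 10.50, 14.33 and 14.33 in WT hCG arrays, against 8.98, 8.14 and 9.96 in WT PMSG arrays. The low value was that of WT hCG replicate 1, and without it the change was 5.30. In both genotype comparisons and in the difference of the responses 0 genes of these 5 lists passed in limma. The lists, in the order described, had 6, 7, 12, 10 and 17 measured genes. At an unadjusted p under 0.05 they held 0, 2, 0, 1 and 5 genes between genotypes after hCG, beside 17.5% of all genes. They held 4, 2, 0, 2 and 0 after PMSG, beside 9.53%, and 1, 1, 0, 2 and 4 for the difference of the responses, beside 15.3%. Some of these calls were lost when single arrays were left out: that of Ccnd1 for 7 of the 12 arrays (adjusted p up to 0.139), of Sp3 for 4 (0.0921), of Sin3b for 8 in bERKO (0.095) and 7 in WT (0.137), and of Star in WT for 8 (0.136). The call of Klf17 was lost without bERKO hCG replicate 1 (0.0509).

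Klf4 and Klf3 had the largest changes after hCG averaged over the genotypes, 3.23 and 2.17, and the genes nearest to their profiles over the 12 arrays were sought by the root mean square difference of centred levels. Nearest to Klf4 were Plk2 at 0.51, Nr4a3 at 0.56 and Nr4a1 at 0.59, beside a standard deviation of 1.89 of Klf4 over the arrays. Nr4a1 and Nr4a3 encode orphan nuclear receptors of the early response. Nearest to Klf3 were Speer4b at 0.39, Has1, a hyaluronan synthase, at 0.42 and Jun, a subunit of AP-1, at 0.42, beside a standard deviation of 1.29 of Klf3.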

How the data were processed

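RNA of 12 samples in 4 groups was measured on one-colour Affymetrix mouse arrays, after laser capture, amplification and biotin labelling with NuGEN kits, per the labels' protocols. The authors' deposited values are linear intensities, 1 per probe set, whose 2% trimmed mean is 500 on every array; no source used here names the software behind them, and the values came without detection calls. Array medians differed by 0.98 log2 units, so quantile normalisation was applied to the linear intensities, and log2(intensity + 16) was taken afterwards. Probe sets annotated to exactly 1 gene (34945 of 45037, leaving out 64 control probe sets, 932 with several genes and 9160 unlisted) were reduced to the brightest per gene, 18193 genes. limma 3.58.1 in R 4.3.3 fitted the 4 group means over all arrays (lmFit, eBayes, two-sided, Benjamini-Hochberg over all genes, threshold 0.05); the number of arrays, 3 per group, limits precision. The steps were tested on simulated data. Where nothing shows separate animals, p-values measure only the spread between these samples. The comparisons share groups: each treated or genotype contrast reuses arrays of another.

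Members and gene lists were chosen with earlier results of these data known. All 10 members are named in every comparison. Of each other list at most 4 genes that pass, with the smallest p, are named, and 3 nearest profiles for each of the 2 members with the largest average change. Alternatives were the deposited scale, median centring, offsets of 1 and 64, a mean log2 of at least 7, the mean of all probe sets, the second probe set, a replicate block, array weights, each array left out, both arrays of high Gapdh ratio left out, and a fit of only the groups compared. Promoter windows came from RefSeq (GRCm38.p6). A planned comparison of the protein sequences was not run, because no protein sequences were used here.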

Additional observations from a re-analysis of the deposited data

How the results depend on the processing

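The rises of Klf3, Klf4 and Klf7 in bERKO passed under every alternative run, with changes of 1.84 to 3.26, 3.29 to 4.77 and 2.16 to 3.24. Of the 10 genes, the number passing after hCG between genotypes was 1 with median centring, an offset of 64, a mean log2 of at least 7, the mean of all probe sets or only the 2 groups compared, 2 with array weights, and 0 to 1 with single arrays left out. In WT it was 2 with an offset of 64 or the mean of all probe sets, 3 with a mean log2 of at least 7 or array weights, 1 without both arrays of high Gapdh ratio, and 0 to 1 with single arrays left out. For the difference of the responses it was 1 with an offset of 64, a mean log2 of at least 7, the mean of all probe sets or the second probe set, and 0 to 1 with single arrays left out. In bERKO it was 5 without both arrays and 4 with array weights, Klf15 joining at -1.25. With the minimum level fewer genes were tested, 9619, and standard errors changed too, for Klf3 in WT to 0.307. The cause of these shifts was not tested. Replicate numbers did not pair the samples: 1 of 18 correlations of same-numbered deviations was over 0.1 (range -0.082 to 0.119), and 6 arrays correlated best with their own number. With the replicate block 3 genes passed in bERKO and 0 in each other comparison, as without it; over all genes 2, 409, 3150, 148 and 129 passed for PMSG genotype, hCG genotype, bERKO response, WT response and their difference, against 2, 562, 3447, 378 and 239 without it.

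Over all genes the hCG genotype count was 225 with an offset of 1, 882 with 64, 265 with the second probe set, 1239 with array weights, 219 in the 2-group fit, 259 without both arrays and 141 to 684 with single arrays left out. The WT count was 233 as deposited, 140 and 870 with offsets of 1 and 64, 910 with the minimum level, 160 with the second probe set, 1598 with array weights, 31 in the 2-group fit, 835 without both arrays and 49 to 580 with single arrays left out. The count for the difference was 95 and 454 with offsets of 1 and 64, 377 with the minimum level, 100 with the second probe set, 420 with array weights, 120 without both arrays and 81 to 408 with single arrays left out. The PMSG genotype count was between 0 and 26 under every alternative. Higher and lower genes after hCG between genotypes were 282 and 280, against 221 and 344 as deposited and 356 and 179 with median centring. In WT they were 133 and 245, against 72 and 325 with median centring, and in bERKO 1283 and 2164, against 964 and 3005. Median centring put the median of all genes at -0.41 in bERKO, beside -0.19, at -0.22 in WT, beside -0.08, and at 0.24 between genotypes after PMSG, beside 0.04; the deposited scale put it at -0.05 in bERKO, and 0.03 in WT.

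Signs turned for estimates that passed nowhere, and for Wdr5. Between genotypes after PMSG, Klf6 was 0.017 with median centring; Klf7 was -0.46 and Klf13 0.39 with the mean of all probe sets; the second probe sets gave 0.40 for Klf3, -0.31 for Klf5, -0.98 for Klf7 and 0.051 for Klf13; without both arrays Klf4 was 0.049, Klf6 0.020 and Klf9 -0.021. With single arrays left out the ranges were -1.17 to 0.049 for Klf4, -0.046 to 0.74 for Klf5, -0.66 to 0.020 for Klf6, -0.50 to 0.50 for Klf7, -0.021 to 0.48 for Klf9, -0.59 to 0.080 for Klf13 and -0.25 to 0.76 for Klf15. After hCG, Klf6 was 0.052 as deposited, 0.20 with median centring, 0.15 with the mean of all probe sets and 0.083 with the second, where Klf9 was 0.17; without both arrays Klf9 was 0.0061 and Klf10 -0.13; the single-array ranges were -0.22 to 0.058 for Klf6, -0.52 to 0.0061 for Klf9 and -0.13 to 0.57 for Klf10. In bERKO, Klf5 was 0.30 as deposited, 0.24 with the mean of all probe sets, 0.019 with array weights and 0.28 without both arrays; Klf10 was 0.10 with array weights and 0.16 without both arrays; the single-array ranges were -0.35 to 0.28 for Klf5 and -0.40 to 0.16 for Klf10; the second probe set of Wdr5 gave 0.81. In WT, Klf13 was 0.16 with the mean of all probe sets and 0.30 with the second, where Klf5 was -0.076. For the difference of the responses, Klf6 was -0.013 with array weights and -0.24 without both arrays, where Klf9 was 0.027; the single-array ranges were -0.10 to 0.58 for Klf6 and -0.36 to 0.046 for Klf2. The cause of these turns was not tested. Without detection calls, levels near the floor of 4 cannot be told from background.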
